A study of Mus musculus with 12 samples.

Results

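The 7 genes described here encode the lymphocyte-specific machinery that cuts and joins antigen receptor genes and the stand-in light chain that the first assembled heavy chain meets. They were chosen by name out of 23479 genes in the deposited table: Rag1, Rag2 and Dntt of V(D)J recombination, and Igll1, Vpreb1, Vpreb2 and Vpreb3 of the surrogate light chain group. All 7 were found, and 6 of them passed the filter for testing, a normalized count of at least 10 in at least 3 libraries. Dntt did not pass.

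RNA-seq was done on 12 samples of 1 mouse B cell lymphoma on the C57BL/6 background, 3 in each of 4 groups. The first group carried a retrovirus with TFEB-ERT2 and a puromycin resistance gene and was given 4-hydroxytamoxifen (4-OHT) for 4 days, and the second carried the same virus and was given vehicle. The third and the fourth carried the virus with puromycin resistance alone, here called vector, and were given 4-OHT and vehicle. All groups shared the Eµ-Myc and Eµ-rtTA transgenes, both named for an immunoglobulin heavy chain enhancer that is active in B lineage cells, and all were grown with 10 ng/mL of the cytokine IL-7. TFEB is known as a regulator of lysosomal and autophagy genes, and the fused form has alanine in place of serine at residue 211, per the series' design text. ERT2 derives from the ligand-binding part of the human estrogen receptor, and 4-OHT activates proteins fused to it. The dose is uncertain, because it reads 250 nM in the treatment protocol and the same number of ng/mL in the design text. All libraries came from this 1 lymphoma, and the labels do not say whether the 3 replicates were separate cultures, so a p-value here reflects the spread among the deposited samples only, which may be technical.

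RAG1 and RAG2 form the recombinase that cuts DNA at the signal sequences beside V, D and J segments, and terminal transferase, the product of Dntt, adds untemplated nucleotides to the ends before they are joined. In pro-B and pre-B cells the surrogate light chain, made of the lambda5 protein (Igll1) and a VpreB protein (Vpreb1 or the closely related Vpreb2), pairs with the new mu heavy chain to form the pre-B cell receptor. Vpreb3 encodes another VpreB-like protein that binds immunoglobulin chains inside the cell. Expression of all of these genes is a known feature of B cell precursors and is lost from most mature B cells.

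Vpreb1 and Vpreb2 are shown first, because they are nearly identical in sequence and differed in their response. On the mouse build GRCm38, Vpreb1 lies at chr16:16868401-16869255 on the minus strand, 4.42 kb from Igll1 (chr16:16860671-16863985, minus strand), whereas Vpreb2 lies at chr16:17979445-17981274 on the plus strand of the same chromosome. The reference transcripts Vpreb1-201 (766 bases) and Vpreb2-201 (759 bases) were identical at 739 of 766 aligned columns (96.5%), with 20 mismatches and 7 gap columns. The RefSeq promoter windows of GRCm38.p6, which run from 250 bases before to 50 bases after the annotated start, shared a stretch of 156 bases that was 98.1% identical. It ends 50 bases after the start annotated for Vpreb1 (chr16:16869206-16869361) and makes up the first 156 bases of the window of Vpreb2 (chr16:17980315-17980470). The whole window of Vpreb2 (chr16:17980315-17980614) lies inside the span of the gene given above. So does that of Vpreb3 (chr10:75948050-75948349, in the span chr10:75943024-75949657). The start used for the windows of Vpreb2 and Vpreb3 was thus not the first base of the span. The stretches are printed 5′ to 3′ on the strand of each gene, and capitals mark the 3 positions that differ, G12T, C104T and G119A, counted from the first base of the stretch with the base of Vpreb1 given first.
Vpreb1: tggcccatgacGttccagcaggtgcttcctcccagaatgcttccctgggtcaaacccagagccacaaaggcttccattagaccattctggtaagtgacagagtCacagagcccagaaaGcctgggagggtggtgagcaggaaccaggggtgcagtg
Vpreb2: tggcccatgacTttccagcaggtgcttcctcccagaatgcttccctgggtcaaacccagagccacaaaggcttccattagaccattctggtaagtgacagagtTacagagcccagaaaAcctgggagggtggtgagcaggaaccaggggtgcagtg

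The promoter windows of Rag1 and Igll1 are shown because Rag1 had the largest fitted fall with 4-OHT in TFEB cells and Igll1 the highest level of the 7 genes in 3 of the 4 groups. Capitals mark matches to 4 short motifs searched on both strands in all 7 windows. These were CACGTG (the E-box known for TFEB and its relatives), CAGGTG (an E-box known for E proteins such as Tcf3), TGTTTAC (a forkhead motif) and TGGGAA (the core known for Ikaros proteins). The Rag1 window is chr2:101649483-101649782 on the minus strand and the Igll1 window is chr16:16863936-16864235 on the minus strand, both in GRCm38.p6 from RefSeq.
Rag1: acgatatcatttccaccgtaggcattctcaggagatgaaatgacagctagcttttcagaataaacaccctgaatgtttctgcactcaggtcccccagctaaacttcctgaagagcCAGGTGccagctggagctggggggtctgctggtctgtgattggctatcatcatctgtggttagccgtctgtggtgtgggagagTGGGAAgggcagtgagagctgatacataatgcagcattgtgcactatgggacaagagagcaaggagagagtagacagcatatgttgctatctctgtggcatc
Igll1: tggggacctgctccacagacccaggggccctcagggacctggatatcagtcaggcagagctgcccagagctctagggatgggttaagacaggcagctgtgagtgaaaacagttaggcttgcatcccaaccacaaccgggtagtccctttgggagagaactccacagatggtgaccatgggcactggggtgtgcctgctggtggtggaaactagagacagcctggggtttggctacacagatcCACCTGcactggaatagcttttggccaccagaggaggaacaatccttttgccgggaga
CAGGTG was found in 4 of the 7 windows (Rag1, Vpreb1, Vpreb2 and Igll1, the last on the opposite strand) and in 20.2% of all 32851 promoter windows. In Vpreb1 and Vpreb2 the match lies inside the shared stretch. TGGGAA was found in 2 of the 7 (Rag1 and Vpreb2) and in 25.6% of all windows. CACGTG was in none of the 7 and in 7.15% of all windows, and TGTTTAC in none and in 3.65%. No matches overlapped within a window of the 7 genes, and a match is a description of these letters only. Sequence around the first base of the spans of Vpreb2 and Vpreb3 was not searched.

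The libraries held 11849029 to 22109283 recovered reads. For a gene without reads a count of 0 allows up to 3 reads, or 2.21 to 4.15 normalized counts. Genes with at least 1 read numbered 11390 to 19250 per library. In TFEB 4-OHT library 2, TFEB vehicle library 3 and vector 4-OHT library 2, called gene-rich here, 13964 to 15449 genes reached 10 normalized counts, against 10479 to 11459 in the other 9, and counts of calls that moved by over 1.5 times without these 3 libraries are given beside the result. Tfeb, the targeted gene, averaged 665 ± 72.6 normalized counts in TFEB cells given 4-OHT, 1676 ± 249 in TFEB cells given vehicle, 221 ± 23.4 in vector cells given 4-OHT and 243 ± 17.7 in vector cells given vehicle (SD, n = 3 each). The species of the inserted TFEB was not given in the sources used here. The labelled B lineage was checked with 6 markers (Cd79a, Cd79b, Pax5, Ebf1, Blnk and Cd72), whose normalized counts summed to 21388 to 23229 in TFEB cells given 4-OHT and 27592 to 28799 in TFEB cells given vehicle. In vector cells the sums were 27111 to 29255 in 4-OHT and 26910.0 to 29084 in vehicle. The 9 T and NK cell markers found summed to 38.7 to 111 normalized counts in TFEB cells given 4-OHT, 29.0 to 52.3 in TFEB cells given vehicle, 16.1 to 56.9 in vector cells given 4-OHT and 10.5 to 26.0 in vector cells given vehicle. The 9 myeloid markers found summed to 41.7 to 167 in TFEB cells given 4-OHT, 28.8 to 76.0 in TFEB cells given vehicle, 9.30 to 77.1 in vector cells given 4-OHT and 10.2 to 29.5 in vector cells given vehicle. The adult globin genes Hbb-bt, Hbb-bs and Hba-a1 were at 0 in all 12 libraries. All 6 erythroid markers summed to at most 28.4, in TFEB 4-OHT library 2. The 8 stromal and endothelial markers summed to 698 to 932 in TFEB cells given 4-OHT and 868 to 872 in vehicle. In vector cells these sums were 910 to 1012 in 4-OHT and 814 to 859 in vehicle. Most of this was Pecam1, which averaged 684, 805, 852 and 809 in the 4 groups in this order.

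The recombinase genes had the largest changes of the group. Rag1, at chr2:101638252-101649532, had 124, 89.1 and 70.8 normalized counts in the 3 libraries of TFEB cells given 4-OHT, against 1218, 1408 and 1169 in TFEB cells given vehicle. It had 979, 1172 and 647 in vector cells given 4-OHT, against 1216, 1366 and 1728 in vector cells given vehicle. All 3 TFEB libraries in 4-OHT lay below every other library. Rag1 fell 13.6-fold with 4-OHT in TFEB cells (log2 -3.76 ± 0.19 SE, limma adjusted p = 1.49e-16, fold changes on the log2(value + 1) scale). In bulk RNA, fewer cells that express a gene and less RNA per cell cannot be told apart, here or in any result that follows.

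Rag2 lies beside Rag1, 5.72 kb away on the opposite strand (chr2:101624712-101632528). It had 10.8, 38.7 and 5.82 normalized counts in TFEB cells given 4-OHT, against 262, 201 and 129 in TFEB cells given vehicle. Its values were 405, 380 and 207 in vector cells given 4-OHT, against 392, 490 and 504 in vector cells given vehicle. The TFEB libraries in 4-OHT were again the lowest 3, from 10, 30 and 6 reads, and they differed more among themselves (SD 96.2% of the mean) than those of any other group (13.3% to 33.9%). The fitted fall was 12.9-fold (log2 -3.69 ± 0.41 SE, limma adjusted p = 1.78e-08). Without TFEB 4-OHT library 2, which had the most Rag2 reads of its group, the log2 change was -4.41, and without the 3 gene-rich libraries it was -4.68. It was -3.14 without TFEB 4-OHT library 3 and -2.99 with a pseudocount of 10, and all of these were past the threshold.

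The ratio of Rag1 to Rag2 averaged 8.66 ± 5.51 in TFEB cells given 4-OHT and 6.92 ± 2.23 in TFEB cells given vehicle (SD, n = 3 each). The 3 TFEB libraries in 4-OHT had 11.5, 2.30 and 12.2. An exact two-sided permutation test of the ratios on the log2 scale, used for every ratio test here, gave p = 1. In vector cells the ratio was 2.88 ± 0.40 in 4-OHT and 3.11 ± 0.32 in vehicle (exact permutation p = 0.6). With 3 libraries against 3 this test cannot go below 0.1, and p was adjusted over 6 such tests, giving 1 and 0.9 for these. Among the vehicle libraries the ratio was 4.64 to 9.10 in TFEB cells and 2.79 to 3.43 in vector cells, so these did not overlap, and this difference was not tested as a ratio.

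Dntt (chr19:41029275-41059525) was near the limit of detection in every group. It had 6.46, 5.16 and 0 normalized counts in TFEB cells given 4-OHT, against 3.43, 0 and 8.29 in TFEB cells given vehicle. In vector cells it had 0, 17.8 and 0 in 4-OHT, against 3.69, 0.787 and 0 in vehicle. The highest value came from 15 reads, 5 of the 12 libraries had none, and the ranges of the 4 groups overlapped. Dntt did not pass the filter, so no test of a difference between groups is given for it.

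Among the surrogate light chain genes, Igll1 and Vpreb1, neighbours on chromosome 16, fell by nearly the same factor. Igll1 had 3582, 3525 and 3522 normalized counts in TFEB cells given 4-OHT, against 9819.7, 10251 and 10315 in TFEB cells given vehicle, and 11138, 10302 and 14455 in vector cells given 4-OHT, against 10016, 9625 and 11113 in vector cells given vehicle. The 3 TFEB libraries in 4-OHT differed by an SD of 0.963% of their mean, and no library of another group came near them. The fall was 2.86-fold (log2 -1.51 ± 0.09 SE, limma adjusted p = 3.29e-14).

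Vpreb1 had 2646, 2268 and 2749 normalized counts in TFEB cells given 4-OHT, against 7380.2, 6337 and 8634 in TFEB cells given vehicle. Vector cells had 7922, 6563 and 7338 in 4-OHT, against 6247, 7420.0 and 6763 in vehicle. The other 9 libraries had at least 6247. Vpreb1 fell 2.90-fold in TFEB cells (log2 -1.54 ± 0.10 SE, limma adjusted p = 1.08e-13). The ratio of Igll1 to Vpreb1 was 1.40 ± 0.14 in TFEB cells given 4-OHT and 1.38 ± 0.22 in TFEB cells given vehicle (SD, n = 3 each, exact permutation p = 0.9, adjusted over 6 tests 1).

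Vpreb2 did not follow. It had 4516, 4498 and 4091 normalized counts in TFEB cells given 4-OHT, against 4250.0, 3833 and 4524 in TFEB cells given vehicle, so the groups overlapped. In vector cells it had 3286, 3535 and 3283 in 4-OHT, against 3296, 4614 and 3842 in vehicle. The log2 change in TFEB cells was 0.06 ± 0.10 SE, with a 95% interval from -0.14 to 0.25 (limma adjusted p = 0.755). The 95% interval of Vpreb1 ran from -1.74 to -1.33 and did not meet that of Vpreb2.

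The ratio of Vpreb1 to Vpreb2 was 0.586, 0.504 and 0.672 in TFEB cells given 4-OHT, against 1.74, 1.65 and 1.91 in TFEB cells given vehicle. It was 2.41, 1.86 and 2.24 in vector cells given 4-OHT, against 1.90, 1.61 and 1.76 in vector cells given vehicle. Vpreb2 thus had more counts than Vpreb1 in each of the 3 TFEB libraries in 4-OHT and fewer in each of the other 9. The ratio was 3.02-fold lower with 4-OHT in TFEB cells, with an exact two-sided permutation p of 0.1, the smallest that 3 against 3 allows (0.6 adjusted over 6 tests), and in vector cells the p was 0.2 (0.6 adjusted). Of fragments of 50 bases, 32.5% of those of Vpreb1-201 also occur in Vpreb2-201, and of fragments of 100 bases 14.5%, so reads can be shared. How the authors treated such reads and the read length were not given in the sources used here, and the single values of the pair are uncertain. Their sum does not depend on how shared reads were split between them, but any shared reads left out of counting would be missing from it too. The sum was 6923 ± 211 normalized counts in TFEB cells given 4-OHT and 11653 ± 1494 in TFEB cells given vehicle (log2 -0.74 ± 0.09 SE, limma adjusted p = 1.04e-07, a setting chosen after seeing the data). Vpreb2 made up 63.1% of the sum in TFEB cells given 4-OHT and 36.1% in TFEB cells given vehicle, and 31.6% in vector cells given 4-OHT and 36.5% in vector cells given vehicle.

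**Figure D1:**
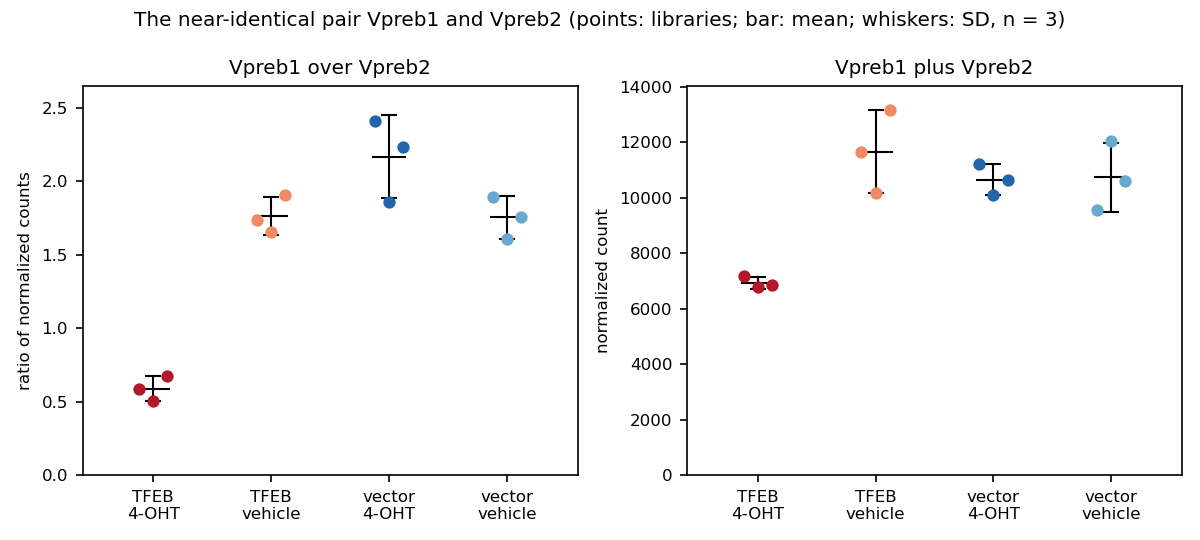
Ratio of Vpreb1 to Vpreb2 (left panel, y axis ratio of normalized counts) and sum of the 2 genes (right panel, y axis normalized counts) in each library of the 4 groups, with the mean as a bar and the SD as whiskers (n = 3). The ratio was 0.504 to 0.672 in TFEB cells given 4-OHT and at least 1.61 in every other library.

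Vpreb3, at chr10:75943024-75949657 and apart from the other genes, fell most among the VpreB genes. It had 1036, 927 and 991 normalized counts in TFEB cells given 4-OHT, against 5774, 6564 and 6443 in TFEB cells given vehicle. Vector cells had 5993, 5771 and 5486 in 4-OHT, against 4863, 5845 and 6522 in vehicle. The TFEB libraries in 4-OHT were tight and the other 9 libraries had at least 4863. The fall was 6.35-fold (log2 -2.67 ± 0.09 SE, limma adjusted p = 4.84e-20).

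**Figure D2:**
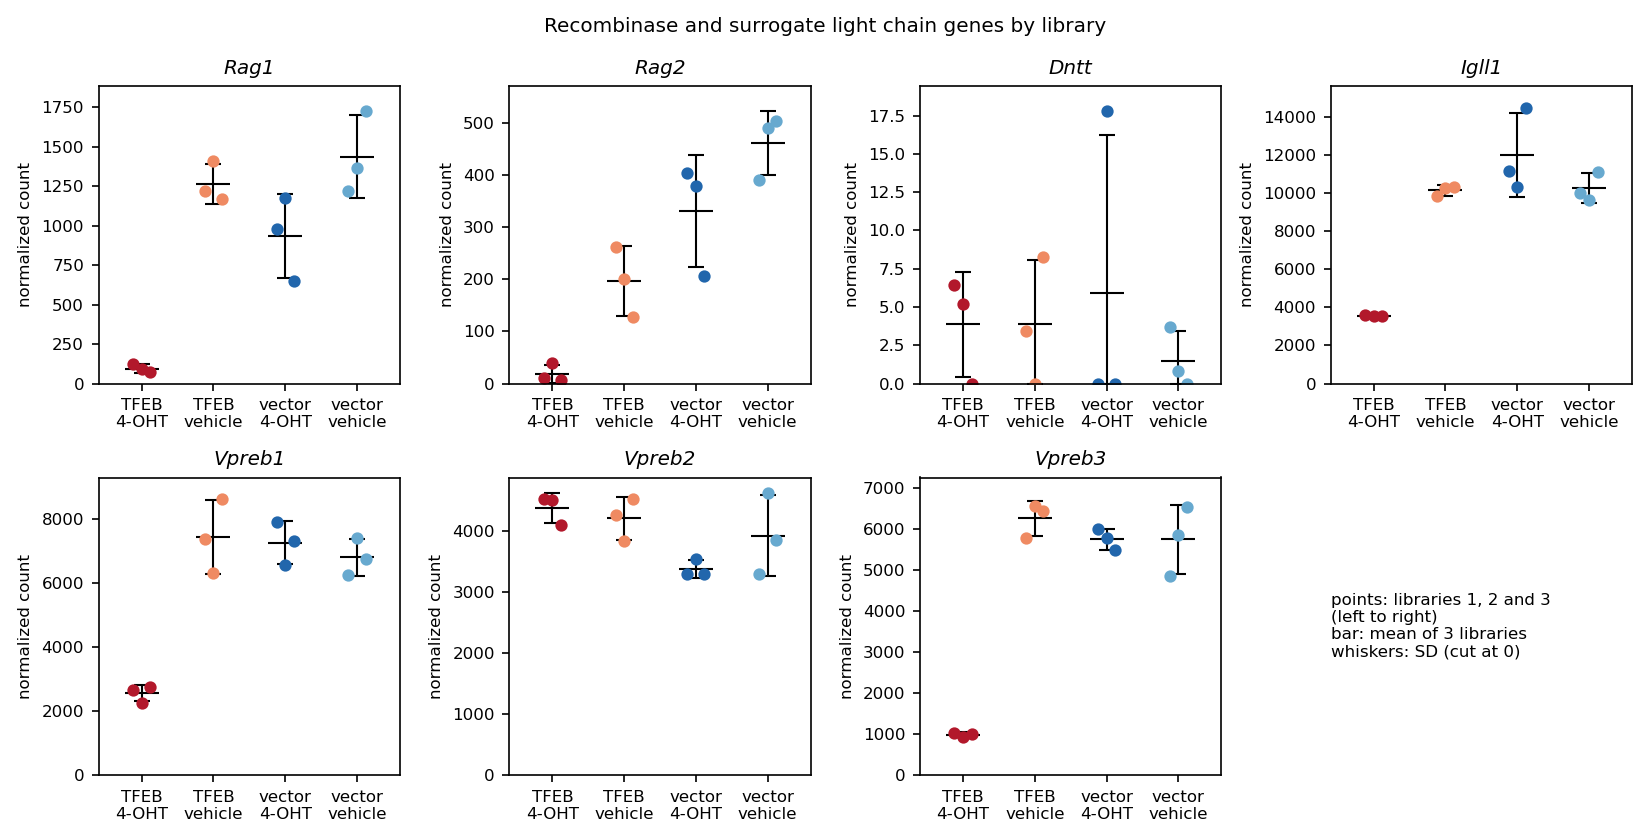
Normalized counts of the 7 genes in each library (y axes start at 0 and differ between panels), with points for libraries 1 to 3, a bar for the mean and whiskers for the SD, ended at 0 where they would pass it. TFEB cells given 4-OHT lie below every other library for Rag1, Rag2, Igll1, Vpreb1 and Vpreb3, but not for Vpreb2 or Dntt.

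In TFEB cells, 5 of the 6 tested genes were therefore called lower with 4-OHT, where 13.9% of all 13111 tested genes were called lower and 13.7% higher. The libraries did not overlap for the same 5 genes, as for 18.4% of all tested genes in that direction. The median log2 change was -2.10 over the 6 genes and 0.04 over all genes tested. The 5 falls passed the threshold in every alternative setting tried, and Vpreb2 passed it in none.

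In vector cells 4-OHT gave no call among the 6 genes with limma, edgeR or DESeq2, where limma called 2 of all tested genes (0.0153%). Of all 13111 tested genes 822 had an unadjusted p under 0.05, and of the 6 there were 3 that did. Rag1 was the largest of these, with a log2 change of -0.65 ± 0.19 SE and vector libraries that did not overlap (limma adjusted p = 0.291), and its adjusted p ran from 0.0575 to 0.963 over the alternatives. Of all tested genes, 5.34% had non-overlapping vector libraries in that direction. Igll1 had a log2 change of 0.21 ± 0.09 SE (limma adjusted p = 0.73) and Vpreb2 one of -0.21 ± 0.10 SE (limma adjusted p = 0.778). Rag2 had -0.53 ± 0.41 SE, Vpreb1 0.09 ± 0.10 SE and Vpreb3 0.01 ± 0.09 SE.

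The response to 4-OHT differed between the lines for 5 of the 6 genes by the interaction term, all lower in TFEB cells, where 8.01% of all tested genes were called in that direction. In both directions 2066 genes were called, and 1324 without the 3 gene-rich libraries. The difference in log2 change, TFEB cells minus vector cells, was -3.16 ± 0.58 SE for Rag2 (limma adjusted p = 0.000162) and -3.11 ± 0.26 SE for Rag1 (1.23e-10). It was -2.68 ± 0.13 SE for Vpreb3, -1.72 ± 0.13 SE for Igll1 and -1.63 ± 0.14 SE for Vpreb1, the least certain of these 3 at a limma adjusted p of 2.08e-10. Vpreb2 had 0.26 ± 0.14 SE (limma adjusted p = 0.227, 95% interval -0.02 to 0.54).

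The lines were also compared within each treatment, with libraries that these comparisons share with those above. In 4-OHT, TFEB cells had lower levels than vector cells for the same 5 genes (13.5% of all tested genes), with log2 differences of -4.43 ± 0.41 SE for Rag2, -3.28 ± 0.19 SE for Rag1, -2.55 ± 0.09 SE for Vpreb3, -1.74 ± 0.09 SE for Igll1 and -1.51 ± 0.10 SE for Vpreb1. Vpreb2 was higher in TFEB cells by 0.37 ± 0.10 on the log2 scale (limma adjusted p = 0.0032), a direction called for 13.6% of all genes. That call was lost without a variance trend (adjusted p = 0.0585) and without the 3 gene-rich libraries (0.0799).

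In vehicle no gene of the 6 was called between TFEB and vector cells with limma, where 5.38% of all tested genes were (705 genes, and 297 without the 3 gene-rich libraries). Rag2 had the only unadjusted p under 0.05 of the 6, where 2319 of all 13111 tested genes had one. It averaged 197 ± 66.9 normalized counts in TFEB cells and 462 ± 61.4 in vector cells (SD, n = 3 each), and the libraries did not overlap, as for 9.66% of all tested genes in that direction. The log2 difference was -1.28 ± 0.41 SE (limma adjusted p = 0.0692). edgeR called it lower (adjusted p = 0.0113), DESeq2 did not, and over 23 alternatives the adjusted p ran from 0.0112 to 0.343, past the threshold in 6. Rag1 differed by -0.17 ± 0.19 SE on the log2 scale, and Igll1, Vpreb1, Vpreb2 and Vpreb3 by -0.02 to 0.13.

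**Figure D3:**
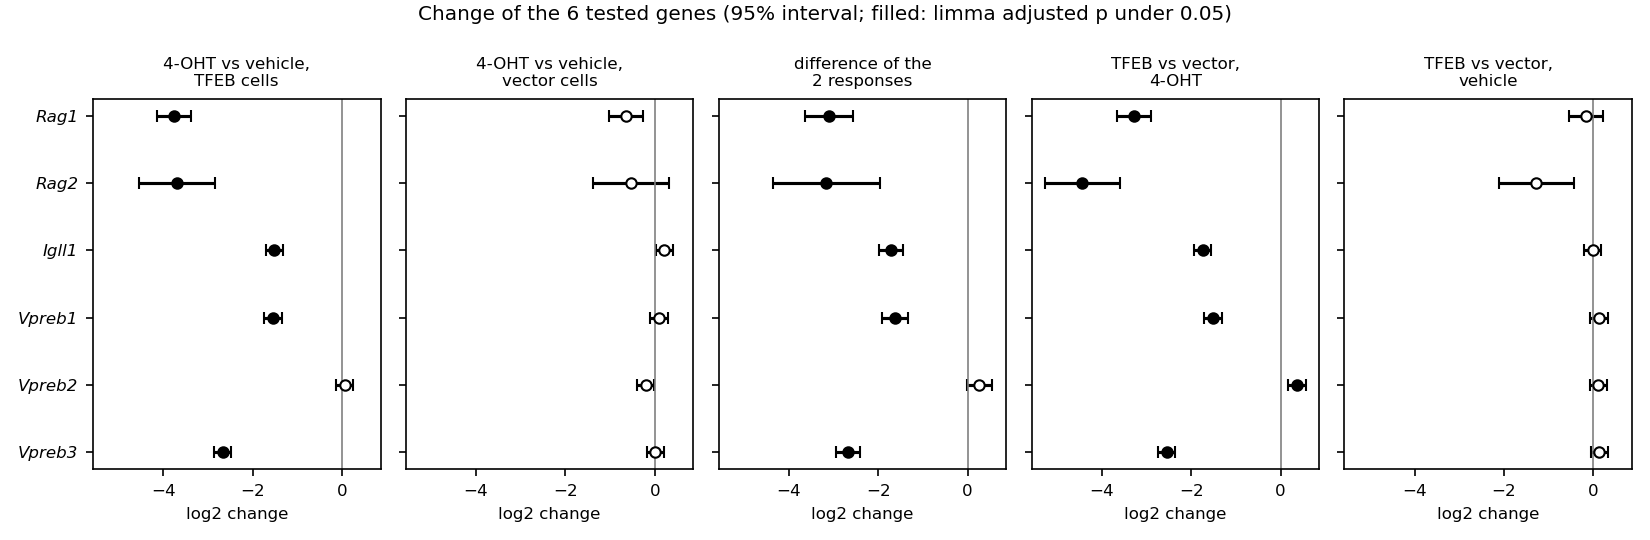
Fitted log2 change of the 6 tested genes in the 5 comparisons (x axis), with 95% intervals and filled points where the limma adjusted p is under 0.05. In 4-OHT against vehicle in TFEB cells the points run from -3.76 for Rag1 to 0.06 for Vpreb2, the only open point of that panel.

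Per kilobase of 1 reference transcript for each gene (such as Vpreb1-201 and Igll1-201 of GENCODE vM21, since the authors' annotation was not given in the sources used here), the surrogate light chain genes were far above the recombinase genes. In TFEB cells given 4-OHT the order of mean levels was Vpreb2 (5756 normalized counts per kb), Igll1 (4072), Vpreb1 (3335), Vpreb3 (1575), Rag1 (14.3), Rag2 (5.38) and Dntt (1.82). In TFEB cells given vehicle it was Igll1 (11642), Vpreb3 (10017), Vpreb1 (9726), Vpreb2 (5537), Rag1 (191), Rag2 (57.6) and Dntt (1.83). Vpreb2 was thus the highest of the 7 in TFEB cells given 4-OHT and the fourth in TFEB cells given vehicle. The ranges of Rag1 and Rag2 overlapped in TFEB cells given 4-OHT (10.7 to 18.7 and 1.70 to 11.3 per kb), as did those of Rag2 and Dntt. In TFEB cells given vehicle Vpreb3 and Vpreb1 overlapped (9239 to 10502 and 8272 to 11272 per kb). In vector cells given vehicle the order was Igll1 (11783), Vpreb3 (9189.9), Vpreb1 (8891), Vpreb2 (5161), Rag1 (217), Rag2 (135) and Dntt (0.700), again with overlap of Vpreb3 and Vpreb1. In vector cells given 4-OHT it was Igll1 (13753), Vpreb1 (9496), Vpreb3 (9200.3), Vpreb2 (4438), Rag1 (141), Rag2 (96.5) and Dntt (2.78), with overlap of Vpreb1 and Vpreb3 and of Rag1 and Rag2.

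The genes next to these 7 on the chromosomes moved in different directions or were not called. Traf6, a signalling adaptor gene beside Rag1, averaged 1892 ± 108 normalized counts in TFEB cells given 4-OHT and 1855 ± 342 in TFEB cells given vehicle (log2 0.04 ± 0.10 SE, limma adjusted p = 0.841). The gene B230118H07Rik, now named Iftap, lies on the strand opposite to Rag2 and overlaps it by 4320 bases. It had 2.80 ± 3.31 normalized counts in TFEB cells given 4-OHT and 73.2 ± 16.4 in TFEB cells given vehicle (log2 -4.71 ± 0.77 SE, limma adjusted p = 1.39e-05). Use of strand in counting was not given in the sources used here, and without it reads of the 2 genes cannot be told apart within the overlap. Both genes also extend outside the overlap, where strand is not needed to tell them apart. How many reads of either gene fell in the overlap is not known here.

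Beside Vpreb1 and Igll1, Top3b, a topoisomerase gene that starts 1.47 kb from Vpreb1, had a log2 change of 0.03 ± 0.09 SE in TFEB cells (limma adjusted p = 0.863), and Ppm1f, a phosphatase gene, fell by 0.47 ± 0.09 on the log2 scale (7.78e-05). Beside Vpreb2, Slc25a1, the mitochondrial citrate carrier, had a log2 change of 0.05 ± 0.09 SE, while Dgcr6 and Prodh on the other side rose. Dgcr6 averaged 2948 ± 223 normalized counts in TFEB cells given 4-OHT and 1108 ± 121 in TFEB cells given vehicle (log2 1.41 ± 0.11 SE, limma adjusted p = 1.13e-11). Prodh, the first enzyme of proline breakdown, averaged 1178 ± 12.5 in TFEB cells given 4-OHT and 77.3 ± 19.8 in TFEB cells given vehicle (log2 3.95 ± 0.37 SE, limma adjusted p = 4.12e-10). Beside Vpreb3, Chchd10, which encodes a mitochondrial protein, had 2851 ± 243 in TFEB cells given 4-OHT and 6895 ± 371 in TFEB cells given vehicle (log2 -1.28 ± 0.08 SE, limma adjusted p = 8.06e-14). Gm867 fell by 2.17 on the log2 scale (limma adjusted p = 0.0174, lost in 5 of 23 alternatives), and Zfp280b had a log2 change of 0.02 ± 0.11 SE. Gm867 averaged 20.0 normalized counts in TFEB cells given 4-OHT and 82.8 in vehicle, and 36.3 and 35.2 in vector cells. Against vector cells given 4-OHT it differed by -0.59 ± 0.69 SE (limma adjusted p = 0.618). Neither that difference nor the interaction (0.246) was called. Gm5134, also beside Vpreb3, and Tll2, near Dntt, were not called (-0.83 ± 0.66 and 1.48 ± 1.81 SE). The neighbours Prr5l, Opalin, Gsc2, Rpl31-ps12 and Olfr19 did not reach the filter. Zfp518a, near Dntt, rose by 0.32 ± 0.12 on the log2 scale (limma adjusted p = 0.0478), past the threshold in 8 of 23 alternatives.

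**Figure D4:**
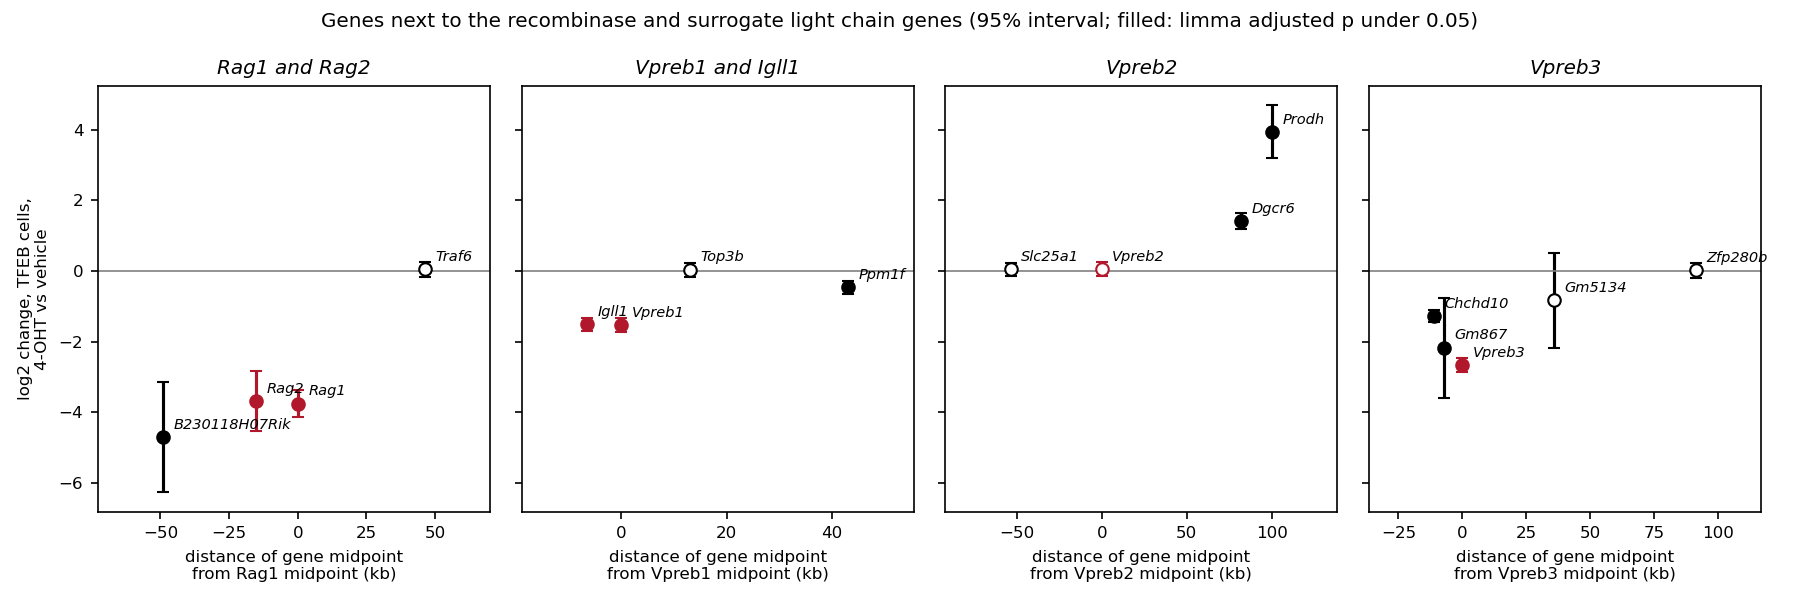
Log2 change with 4-OHT in TFEB cells (y axis, 95% interval) of the 6 tested genes and their tested neighbours by distance between gene midpoints in kb (x axis), in red the genes described here and filled where the limma adjusted p is under 0.05. Vpreb2 at 0.06 stands between Slc25a1 at 0.05 and Dgcr6 at 1.41.

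The other genes of the pathway come from lists chosen with earlier results of these data known, so their counts are a description. The first list held 25 transcription factors and inhibitors of them known to act on these genes in B cell precursors. With 4-OHT in TFEB cells 17 of the 25 were called lower and 4 higher. The median log2 change was -0.66 beside 0.04 over all genes, of which 13.9% were called lower and 13.7% higher. The inhibitors Id2 and Id3 were among the 17 and are counted with the transcription factors below. With edgeR, or without TFEB 4-OHT library 3, the number called higher was 2. Id3, an inhibitor of E proteins, had 67.4 ± 21.2 normalized counts in TFEB cells given 4-OHT and 767 ± 74.1 in TFEB cells given vehicle (SD, n = 3 each, log2 -3.53 ± 0.18 SE, limma adjusted p = 2.97e-16). Erg, an ETS factor, fell by 2.74 ± 0.11 on the log2 scale, Klf2 by 1.76 ± 0.33 and Ikzf3 (Aiolos) by 1.55 ± 0.09. Erg averaged 575 normalized counts in TFEB cells given 4-OHT and 3861 in TFEB cells given vehicle. It averaged 1325 in vector cells given 4-OHT and 1889 in vector cells given vehicle. Against vector cells given 4-OHT, Erg in TFEB cells was lower by 1.19 ± 0.11, also called. Ebf1 and Pax5, which specify the B lineage and are known activators of surrogate light chain genes, had log2 changes of -1.52 ± 0.08 and -1.24 ± 0.10 SE, both called. Foxo1, a known activator of the Rag genes, had -0.66 ± 0.10 SE (limma adjusted p = 7.14e-06) and Tcf3 (E2A) -0.43 ± 0.09 SE (0.00023). The 4 called higher were Myb (0.85 ± 0.08 SE), Ikzf1 (Ikaros, 0.57 ± 0.09 SE), Bcl11a (0.30 ± 0.10 SE) and Tcf12 (0.26 ± 0.08 SE). Against vector cells given 4-OHT, Myb (0.54 ± 0.08 SE) and Bcl11a (0.47 ± 0.10 SE) were also called higher in TFEB cells. Ikzf1 (0.01 ± 0.09 SE, limma adjusted p = 0.958) and Tcf12 (0.15 ± 0.08 SE, 0.199) were not called there. Irf4, known for closing the pre-B stage, had 0.09 ± 0.08 SE (limma adjusted p = 0.463). By the interaction term 14 of the 25 were called lower and 1 higher, beside 8.01% and 7.75% of all tested genes.

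Of 14 genes of the pre-B cell receptor's partners and first signalling steps, 5 were called higher and 4 lower in TFEB cells, with a median log2 change of -0.00295, beside 13.7% and 13.9% of all tested genes called. Blk, a Src family kinase, had 0, 12.9 and 12.6 normalized counts in TFEB cells given 4-OHT, against 93.4, 126 and 196 in TFEB cells given vehicle (log2 -4.54 ± 0.59 SE, limma adjusted p = 2.93e-07). Cd79b, a signalling chain of the receptor, fell by 0.97 ± 0.10 on the log2 scale and Cd79a, its partner, rose by 0.24 ± 0.09 (limma adjusted p = 0.0389). Against vector cells given 4-OHT, Cd79b in TFEB cells was lower by 1.36 ± 0.10. Cd79a differed by 0.07 ± 0.09 SE there and was not called (limma adjusted p = 0.648). Pik3ap1 (BCAP), an adaptor for PI3 kinase, had 6493 ± 181 normalized counts in TFEB cells given 4-OHT and 778 ± 84.2 in TFEB cells given vehicle (log2 3.07 ± 0.11 SE, limma adjusted p = 2.46e-19). Plcg2 rose by 1.35 ± 0.09 on the log2 scale, Btk by 0.62 ± 0.09 and Blnk, which neighbours Dntt, by 0.52 ± 0.09. The mu heavy chain and the conventional light chain constant genes were not analysed here.

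Of 13 cofactors and end-joining genes of V(D)J recombination, which cells of all types use, 5 were called higher and 4 lower, with a median log2 change of 0.21, beside 13.7% and 13.9% of all tested genes called. These counts were unstable, with 2 higher and 2 lower without the 3 gene-rich libraries, 3 higher and 1 lower without a variance trend, and 3 higher with edgeR or without TFEB 4-OHT library 1. The number called lower was 1 without TFEB 4-OHT library 2, and 2 without TFEB 4-OHT library 3, TFEB vehicle library 1 or TFEB vehicle library 2. Hmgb2, which assists RAG cutting, fell by 0.70 ± 0.09 on the log2 scale (limma adjusted p = 1.37e-07) and Dclre1c (Artemis), which opens the hairpin ends, rose by 0.51 ± 0.11 (0.000395). Nhej1 rose by 2.08 ± 0.64, from few counts and past the threshold in 17 of 22 alternatives, and Poll fell by 1.11 ± 0.32, past it in 19 of 23. Nhej1 averaged 45.1 normalized counts in TFEB cells given 4-OHT, against 9.86 in TFEB cells given vehicle, 32.2 in vector cells given 4-OHT and 34.2 in vector cells given vehicle. Against vector cells given 4-OHT, TFEB cells differed by 0.47 ± 0.64 SE for Nhej1 (limma adjusted p = 0.68) and by -0.64 ± 0.32 SE for Poll (0.155), neither called. The largest change in this list was thus smaller than those of Rag1 and Rag2.

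Other markers of the pro-B and pre-B stages did not move one way, with 4 of 13 called higher, 4 lower and a median log2 change of -0.08, beside 13.7% and 13.9% of all tested genes called. Arpp21 fell by 1.84 ± 0.32 on the log2 scale, Bst1 (BP-3) by 1.73 ± 0.08, Lax1 by 1.53 ± 0.29 and Enpep (BP-1) by 1.38 ± 0.08. The 4 that rose were Cd93 (1.23 ± 0.09 SE), Cd2 (0.89 ± 0.21 SE), Spn (CD43, 0.62 ± 0.12 SE) and Cecr2 (0.58 ± 0.09 SE). Arpp21 averaged 194 normalized counts in TFEB cells given 4-OHT, against 698 in TFEB cells given vehicle, 171 in vector cells given 4-OHT and 231 in vector cells given vehicle. Against vector cells given 4-OHT, TFEB cells differed by 0.42 ± 0.32 SE for Arpp21 (limma adjusted p = 0.385, not called), by 0.12 ± 0.09 SE for Cecr2 (0.362, not called) and by -0.89 ± 0.21 SE for Cd2 (0.00172, called lower). Il7r, the receptor for the IL-7 in the medium, had a log2 change of 0.10 ± 0.09 SE (limma adjusted p = 0.518). Of 8 tested markers of later B cell stages, Cd38 and Cd22 were called lower (-1.52 ± 0.41 and -1.01 ± 0.10 SE) and Cd37 higher (0.63 ± 0.09 SE). Of the 6 B lineage markers, 4 were called lower and 2 higher in TFEB cells. The tested T and NK (3), myeloid (3) and stromal and endothelial (6) markers gave no call in TFEB cells with limma, edgeR or DESeq2. Of the T and NK markers 2 had an unadjusted p under 0.05, as did 4718 of all 13111 tested genes. Against vector cells given 4-OHT, TFEB cells had 1 of the 3 T and NK and 1 of the 3 myeloid markers called higher with limma, and neither with edgeR, and 1 of the 6 stromal and endothelial markers was called lower with limma. In that comparison limma called 13.6% of all tested genes higher and 13.5% lower. None of the 6 erythroid markers reached the filter. The highest sums of T and NK markers (111) and of myeloid markers (167) were those of TFEB 4-OHT library 2, a gene-rich library. The other 2 libraries of that group had 38.7 and 55.3 for T and NK and 48.4 and 41.7 for myeloid markers, below the 56.9 and 77.1 of vector 4-OHT library 2, and their part in the results was not tested.

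**Figure D5:**
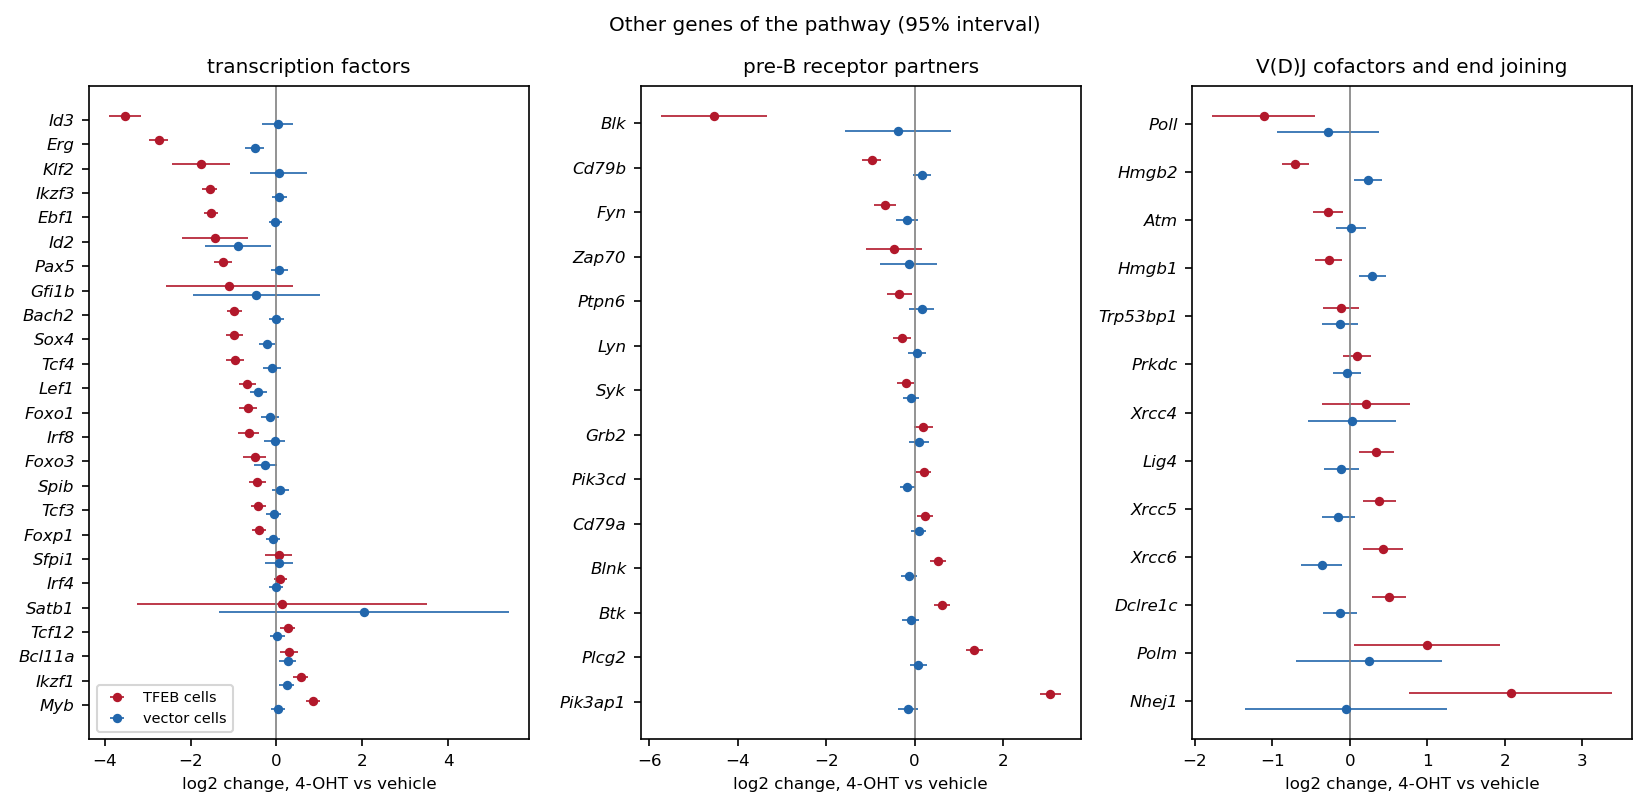
Log2 change with 4-OHT (x axis, 95% interval) of each tested gene of 3 lists in TFEB cells (red) and vector cells (blue). Most transcription factors lie left of 0 in TFEB cells, 17 of 25 called lower, while the other lists spread to both sides.

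In vector cells 4-OHT gave no limma call in any of these lists. At an unadjusted p under 0.05 there were 6 of the 25 transcription factors, 3 of the 13 V(D)J cofactors and 3 of the 13 pro-B and pre-B markers, and none of the other lists tested. Of all 13111 tested genes 822 had such a p. edgeR called none, and DESeq2 called 2 of the transcription factors and none of the others, where it called 48 of all tested genes.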

How the data were processed

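Per the labels' protocols, total RNA was made into libraries with the Ovation mouse RNA-seq kit of NuGEN. The deposited signal is a normalized read count per gene and library. The submitters' processing notes name the mouse build mm10 and the tools DESeq2 1.6.3, HTSeq 0.6.1 and STAR 2.5.3. Their roles, the annotation, the read length and any use of strand were not given in the sources used here. All values were whole multiples, within 0.001, of the value of 1 read, so whole reads were recovered, 11849029 to 22109283 per library. The floor of 3 reads covers counting error only.

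Values were taken to log2 after adding 1. The model was limma 3.58.1 (R 4.3.3) on the 12 libraries together, 1 mean for each group, with a variance trend and Benjamini-Hochberg adjustment over the 13111 genes with at least 10 in at least 3 libraries (threshold 0.05). Fits with edgeR 4.0.16 (quasi-likelihood test) and DESeq2 1.42.0 on the whole reads, other filters, pseudocounts and scalings, a replicate block and leaving out each library were alternatives. The fits were tested on simulated data.

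The 7 genes and all gene lists were chosen with earlier results of these data known. The lists held 124 entries, 115 of which were found, 3 under an older symbol. The rule let the text name the 7 genes, up to 4 members of each list with the largest change past the threshold in TFEB cells, the 2 nearest genes on each side of each of the 7, and the 3 genes most like each tested one. Further list members with a known role were named after their values were seen. Promoter windows are RefSeq's for GRCm38.p6 and transcripts GENCODE vM21's. Some list entries are not reported here. The T and NK marker Trac, the myeloid marker Ly6g and the end-joining gene Paxx were not analysed here.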

Additional observations from a re-analysis of the deposited data

Results flagged for a closer look

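The response to 4-OHT differed between the TFEB and vector lines for 5 genes, by limma's interaction term with an adjusted p under 0.05. The differences in log2 change, TFEB cells minus vector cells, were -3.16 for Rag2, -3.11 for Rag1, -2.68 for Vpreb3, -1.72 for Igll1 and -1.63 for Vpreb1. No explanation of these differences was tested. Each library was left out in turn, but no test for single outlying samples was run within groups of 3 libraries.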

How the results depend on the processing

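The direction and the call of Rag1, Rag2, Igll1, Vpreb1 and Vpreb3 in TFEB cells, in the interaction and in TFEB against vector cells given 4-OHT held in all 21 to 23 alternatives run for each. Values near 0 changed sign: Vpreb2 in TFEB cells was -0.01 without TFEB vehicle replicate 2 (up to 0.11 when single libraries were left out). Vpreb3 in vector cells was -0.02 with edgeR, -0.02 without vector 4-OHT replicate 1 and -0.10 without vector vehicle replicate 1 (up to 0.11 when single libraries were left out). In TFEB against vector cells given vehicle, Vpreb2 was -0.01 without vector vehicle replicate 1 (up to 0.24), and Igll1 (from -0.06) was 0.01 without TFEB vehicle replicate 1 and 0.04 without vector vehicle replicate 3. In that comparison the number of the 6 genes called lower was 1, not 0, with edgeR, with a pseudocount of 10, with only the groups compared and with the replicate block, always Rag2, and it was 0 to 1 when single libraries were left out (1 without TFEB 4-OHT replicate 2 and 1 without TFEB 4-OHT replicate 3). Vpreb2 in TFEB against vector cells given 4-OHT was called in 20 of 22 alternatives, and the number of the 6 called higher was 0 without a variance trend and 0 without the 3 gene-rich libraries, a setting chosen after seeing the data.

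Counts over all genes moved by more than 1.5 times as follows. In vector cells 2 genes became 0 with edgeR, a minimum of 50, upper-quartile scaling, no variance trend or only the groups compared, 48 with DESeq2, and 0 to 55 when single libraries were left out. In TFEB against vector cells given vehicle, 705 became 1224 with DESeq2, 259 with no variance trend, 352 with only the groups compared, 297 without the 3 gene-rich libraries and 433 to 824 when single libraries were left out. The interaction's 2066 became 1324 without the 3 gene-rich libraries. The V(D)J cofactors called lower in TFEB cells were 1 with no variance trend, 2 without the 3 gene-rich libraries and 1 to 4 when single libraries were left out, and those called higher were 3 with edgeR, 3 with no variance trend, 2 without the 3 gene-rich libraries and 3 to 5. Transcription factors called higher were 2 with edgeR and 2 to 4 when single libraries were left out. Later-stage B cell markers called higher were 2 with a pseudocount of 10 and 2 with only the groups compared. The cause of these changes was not tested.

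Samples that share a replicate number did not deviate together (correlations from -0.12 to 0.1), and 2 of 12 libraries correlated best with their own number, so the numbers are not read as pairs. With the replicate block 3601, 2, 2094, 723 and 3548 genes were called for the 4-OHT response of TFEB cells, that of vector cells, the interaction, and the difference of the lines given vehicle and given 4-OHT. Rag2 in vehicle had an adjusted p of 0.0305 with the block, and no other call among the 6 genes changed.

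Depth limits Dntt, with 0 to 15 reads per library, and Rag2 in TFEB cells given 4-OHT, with 6 to 30.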

Other observations

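The genes whose profile over the 12 libraries was most like that of each of the 6 tested genes were found among 8821 genes with a mean of at least 100 normalized counts. Likeness was the root mean square difference of the log2 profiles after centring each gene, so a smaller value is closer. Symbols that begin with Gm or end in Rik, and the genes described here, were left out when the closest were taken. All 12 libraries entered, so the likeness mostly reflects the groups, and it is a description with no test. Closest to Rag1 was Id3 (0.354), an inhibitor of E proteins, followed by BC035044 and Tmem255a. Closest to Rag2 was Svil (0.576), an actin-binding protein, followed by Pllp and Plcg1. For Vpreb1 it was Itga4 (0.151), the alpha4 integrin chain, and for Igll1 it was Alpl (0.135), tissue-nonspecific alkaline phosphatase. Ikzf3 was second for both (0.159 and 0.142). For Vpreb3 it was Coro2a (0.166), and Ccnd3, cyclin D3, was also among its closest 3 (0.194), as was Cpm. The third gene was Chst3 for Vpreb1 and Coq7 for Igll1. Vpreb2 was closest to Cops7a (0.0959), Galnt2 and Kdm1a, which did not pass the threshold in TFEB cells either.

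Alpl averaged 1801 normalized counts in TFEB cells given 4-OHT and 5396 in TFEB cells given vehicle, 6316 in vector cells given 4-OHT and 5650.3 in vector cells given vehicle. Ccnd3 averaged 2597 in TFEB cells given 4-OHT and 13798 in TFEB cells given vehicle (log2 -2.41, limma adjusted p = 1.25e-18). Among the genes described here, Igll1 and Vpreb1 were the closest pair (0.195) and Rag2 and Vpreb2 the farthest (2.13).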
